A study of Mus musculus with 9 samples.

Results

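The 9 genes described here, Id1, Id2, Id3, Bmp4, Bmpr1a, Bmpr2, Smad1, Smad5 and Smad6, encode the Id proteins and components of the bone morphogenetic protein (BMP) pathway. They were taken by symbol, with no threshold on their values, from a table of 15768 gene symbols. The choice was made with earlier results of these data known. All 9 were in the table, and 8 of them were among the 10519 genes that passed a filter on low values (at least 1 FPKM in at least 3 of the 9 libraries). Smad6 did not pass. FPKM is a fragment count scaled by transcript length and by the fragments mapped in the library. It can be compared between genes of different length only as far as the lengths used are right. The length implied for Smad5 was 7424 bases, above the 6584 of its longest GENCODE transcript.

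The RNA came from 3 mouse tumour lines with 3 libraries each. LLC1 is a line of the Lewis lung carcinoma. SCC1 and SCC2 were each grown from a single LLC1 cell by limiting dilution, so each represents 1 clone, and were kept for 5 to 8 passages in the medium of the parent, DMEM with 10% fetal bovine serum. All libraries were labelled wild type, untreated, tumour cells and lung. The labels give no engineered allele. They do not say whether the 3 libraries of each line were separate cultures, and the p-values below then cover only the variation among these samples, possibly technical.

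BMP ligands are secreted dimers that bind a pair of serine/threonine kinase receptors, type II and type I. The type I receptor phosphorylates Smad1 and Smad5, which join Smad4 and enter the nucleus, and Smad6 is an inhibitory Smad that blocks this step. Id1, Id2 and Id3 are classic direct targets of the pathway. Id proteins have a helix-loop-helix domain but no DNA-binding region. They bind the E proteins encoded by Tcf3, Tcf4 and Tcf12, and so keep them from forming active dimers on DNA, and they are known for holding cells in a proliferating, undifferentiated state.

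All 3 Id genes had lower transcript levels in both subclones than in LLC1. Id3 was the most abundant of them and the most reduced, to 45.8% of the LLC1 mean in SCC1 and 52.8% in SCC2. Bmp4, a ligand gene with low levels, was at 10.6% of LLC1 in SCC1 only, and Smad6 was at 2.12% of LLC1 in SCC1 and had no fragment in SCC2. Bmpr1a, Bmpr2, Smad1 and Smad5 differed by less than 1.5-fold in every comparison. In bulk samples such as these, fewer cells of a type and less RNA per cell cannot be told apart.

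These counts stand beside a high background. In SCC1 against LLC1, limma called 7 of the 8 tested genes at an adjusted p under 0.05, while it called 70.1% of all genes tested. Bmpr2 was higher (39.2% of all genes were called higher), and Id1, Id2, Id3, Bmp4, Bmpr1a and Smad1 were lower (30.9% of all genes). In SCC2 against LLC1 it called 6 of 8, beside 67.6% of all genes. Bmpr2, Smad1 and Smad5 were higher (34.7% of all genes) and Id1, Id2 and Id3 lower (32.9% of all genes). In SCC2 against SCC1 it called 6 of 8, beside 76.3% of all genes, with Id3, Bmp4, Smad1 and Smad5 higher (37.0% of all genes) and Id1 and Id2 lower (39.4% of all genes). The shares called are therefore near the background in each comparison, and the size of a change separates the genes more than its call does. A called change of at least 1.5-fold on the log2(FPKM + 1) scale was found for Id3 and Bmp4 in SCC1 against LLC1 (6.54% of all genes). It was also found for Id1 and Id3 in SCC2 against LLC1 (5.74%) and for Bmp4 in SCC2 against SCC1 (11.9%). Id2 in SCC2 against LLC1 fell just short of it on that scale (-0.58), though its means differed 1.51-fold. Bmp4 passed the filter only through LLC1 and SCC2 libraries, the lines in which it was higher than in SCC1. The comparisons with LLC1 share its 3 libraries. Lines whose libraries did not overlap were common as well. Such a gap was found for 72.3% of all genes tested in SCC1 against LLC1 and for 70.7% in SCC2 against LLC1. In SCC2 against SCC1 it was found for 77.9%. Each gap between lines described below stands against these shares.

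**Figure D1:**
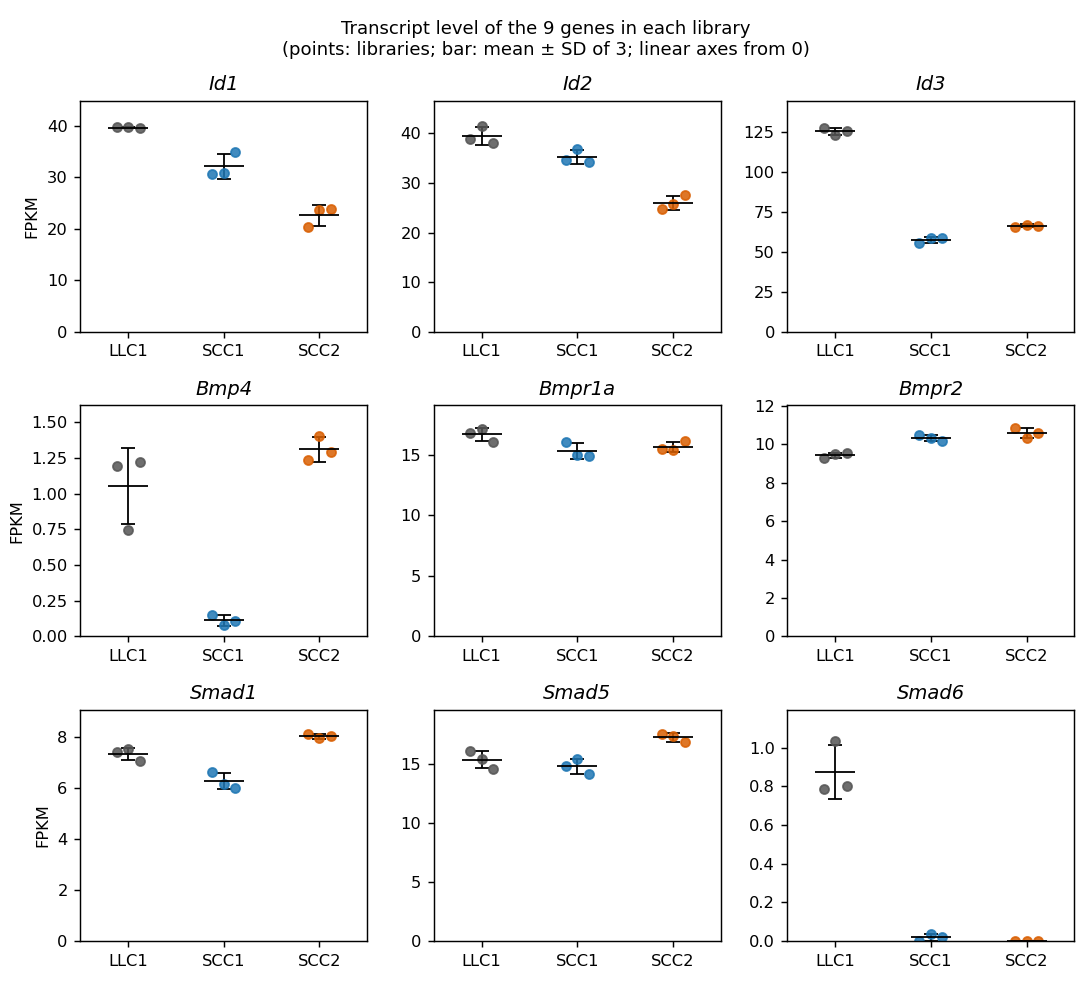
FPKM of the 9 genes in each library, 1 panel a gene with its own axis starting at 0; points are libraries, grouped as LLC1, SCC1 and SCC2, and the bars are the mean ± SD of 3 libraries. The Id3 libraries of LLC1 lie between 123 and 128 FPKM and all subclone libraries between 55.2 and 67.0, and Smad6 is near 0 in both subclones.

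The libraries were alike in depth. Whole fragments worked back from the FPKM values gave totals of 17094808 to 19398657 per library. The lung label was checked against markers. The alveolar genes Sftpc and Nkx2-1 averaged at most 0.0222 FPKM in any line, whereas the keratins Krt8 and Krt18 averaged 75.3 to 295. Endothelial cells use BMP receptors, and the 5 of 8 endothelial markers in the table summed to at most 0.0960 FPKM in any library, and none passed the filter. Markers of other cell types moved with the lines. Of 10 lung epithelial markers, 5 were in the table, while Epcam, Sftpa1, Sftpb, Sftpd and Scgb1a1 were not. The 5, nearly all of it Krt8 and Krt18, summed to 332 to 341 FPKM in LLC1, 445 to 455 in SCC1 and 231 to 232 in SCC2. The fibroblast markers summed to 571 to 597, 258 to 268 and 692 to 714, nearly all of it Col3a1 (means of 575, 257 and 699). The other tested fibroblast markers fell in both subclones, Pdgfra from 5.18 to 3.35 and 3.04 and Dcn from 3.02 to 2.34 and 2.10. The macrophage and leukocyte markers summed to 15.9 to 17.3, 28.1 to 32.1 and 18.8 to 19.3. Of the 3 tested genes of that list, Cd68 and Cd14 rose in SCC1, as did Mrc1, which passed the filter through SCC1 only. In SCC2, Cd14 rose from 12.0 to 15.6, Cd68 fell from 4.11 to 3.05 and Mrc1 went from 0.267 to 0.235 (limma adjusted p = 0.604). Their part in the results below was not tested.

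Bmp4 and Bmpr1a lie on the minus strand of chromosome 14 (46383520 to 46390669 and 34410734 to 34503341 in GRCm38, per GENCODE), Bmpr2 on the plus strand of chromosome 1 (59763400 to 59879014), Smad1 on the minus strand of chromosome 8 (79338395 to 79399518) and Smad5 on the plus strand of chromosome 13 (56703010 to 56742377).

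Among the ligand genes, Bmp4 was the only one that passed the filter, through 2 LLC1 and 3 SCC2 libraries. Its FPKM was 1.20, 0.748 and 1.22 in the LLC1 libraries, 0.150, 0.0785 and 0.106 in SCC1, and 1.24, 1.41 and 1.29 in SCC2. The SCC1 libraries lay below all others and the SCC2 libraries just above all of LLC1. These levels rest on few fragments, 117 over the 3 LLC1 libraries, 13 over SCC1 and 149 over SCC2. The mean was 1.05 ± 0.266 in LLC1 (SD, n = 3), 0.112 ± 0.0361 in SCC1 and 1.31 ± 0.0869 in SCC2. Bmp4 fell in SCC1, by 0.88 on the log2(FPKM + 1) scale (SE 0.0841, limma adjusted p = 2.29e-06), a scale that understates the change of low genes. Under quantile normalization the change was -0.51 (limma adjusted p = 0.00318). On the recovered fragments LLC1 was 9.38-fold above SCC1, with a 95% exact interval of 5.28 to 18.1 that covers counting error only. The difference of SCC2 from LLC1 was 0.18 on the log2 scale (limma adjusted p = 0.0822) and passed the threshold without LLC1 replicate 1 (0.23, limma adjusted p = 0.0499) or replicate 3 (0.24, limma adjusted p = 0.0391), and under quantile normalization (0.40, limma adjusted p = 0.0136). SCC2 was above SCC1 by 1.05 (limma adjusted p = 2.87e-07).

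The other ligand genes were below the filter. Of 13 ligand symbols, 8 were in the table, and their summed level was 1.98 to 2.45 FPKM in LLC1, 0.121 to 0.343 in SCC1 and 1.72 to 2.10 in SCC2. The SCC1 sums lay far below those of the other lines. Bmp2, a close relative of Bmp4 that binds the same receptors, had 102 fragments over the LLC1 libraries, 1 over SCC1 and 73 over SCC2. LLC1 was thus 106-fold above SCC1, with a wide 95% exact interval of 18.7 to 4238, and 1.43-fold above SCC2 (1.05 to 1.96). Bmp5 had 48, 7 and 16 fragments. Bmp2 and Bmp5 were picked out after their values were seen.

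The receptor genes Bmpr1a and Bmpr2 changed little. Bmpr1a encodes a type I receptor with high affinity for BMP2 and BMP4. Its FPKM was 16.8, 17.1 and 16.1 in LLC1, 16.1, 15.0 and 14.9 in SCC1, and 15.5, 15.4 and 16.1 in SCC2. The SCC1 libraries lay just below those of LLC1, and those of SCC2 overlapped both other lines. Bmpr1a fell in SCC1 by 0.12 (SE 0.0363, limma adjusted p = 0.0135), a call that was lost without LLC1 replicate 2 (-0.10, limma adjusted p = 0.0530) or without SCC1 replicate 3 (-0.10, limma adjusted p = 0.0537). Its difference in SCC2 against LLC1 was -0.09 (limma adjusted p = 0.0557); it passed the threshold in 7 of 19 alternatives. These were the fits without LLC1 replicate 3 (limma adjusted p = 0.0286), SCC1 replicate 1 (limma adjusted p = 0.0388) or SCC2 replicate 3 (limma adjusted p = 0.0415), quantile normalization (limma adjusted p = 0.0431), voom on the fragments (limma adjusted p = 0.00950), the fit of LLC1 and SCC2 alone (limma adjusted p = 0.0497) and the removal of chromosome medians (-0.13, limma adjusted p = 0.00901). Against SCC1 it was 0.03 (limma adjusted p = 0.453).

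Bmpr2 encodes the type II receptor that is dedicated to BMP ligands. Its FPKM was 9.28, 9.48 and 9.55 in LLC1, 10.5, 10.4 and 10.2 in SCC1, and 10.9, 10.3 and 10.6 in SCC2. Every subclone library was above every LLC1 library, and the subclones overlapped. Bmpr2 rose by 0.12 in SCC1 (SE 0.0311, limma adjusted p = 0.00464) and by 0.15 in SCC2 (limma adjusted p = 0.00103). The ratio of Bmpr1a to Bmpr2 FPKM was 1.77 ± 0.0722 in LLC1, 1.48 ± 0.0399 in SCC1 and 1.48 ± 0.0459 in SCC2 (SD, n = 3 each).

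Smad1 and Smad5 encode the Smads that BMP receptors phosphorylate. Smad1 had 7.41, 7.53 and 7.08 FPKM in LLC1, 6.64, 6.16 and 6.02 in SCC1, and 8.14, 7.95 and 8.03 in SCC2. The lines did not overlap, with SCC1 lowest and SCC2 highest. Smad1 fell in SCC1 by 0.20 (SE 0.0397, limma adjusted p = 8.51e-04) and rose in SCC2 by 0.12 (limma adjusted p = 0.0221). The rise in SCC2 was lost without LLC1 replicate 3 (0.09, limma adjusted p = 0.0840) or SCC2 replicate 1 (0.11, limma adjusted p = 0.0625). Between the subclones SCC2 was higher by 0.31 (limma adjusted p = 1.68e-05).

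Smad5 was about as abundant as Bmpr1a, with 16.0, 15.4 and 14.6 FPKM in LLC1, 14.8, 15.4 and 14.2 in SCC1, and 17.5, 17.4 and 16.8 in SCC2. SCC1 overlapped LLC1, and SCC2 lay above both. The difference in SCC1 was -0.05 (SE 0.0397, limma adjusted p = 0.290). Smad5 rose in SCC2 by 0.16 against LLC1 (limma adjusted p = 0.00374) and by 0.21 against SCC1 (limma adjusted p = 4.67e-04). The third receptor-activated Smad of the pathway, Smad9, was below the filter, with 61 fragments over LLC1, 0 over SCC1 and 95 over SCC2. Against a floor of 3 fragments over the group, Smad9 was at least 21.2-fold lower in SCC1 than in LLC1. It was picked out after its values were seen.

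Smad6, the inhibitory Smad, lies on the minus strand of chromosome 9 (63953076 to 64022059 in GRCm38, per GENCODE). Its level was 0.788, 1.04 and 0.801 FPKM in the LLC1 libraries, from 43, 55 and 40 fragments. In SCC1 the libraries had 0, 2 and 1 fragments (0, 0.0369 and 0.0187 FPKM), and all SCC2 libraries had 0. No subclone library came near the LLC1 range. Over the 3 libraries of each line, LLC1 had 138 fragments and SCC1 had 3, a 47.9-fold difference with a 95% exact interval of 16.1 to 235. Against a floor of 3 fragments over the group, Smad6 was at least 47.1-fold lower in SCC2 than in LLC1. The two-sided exact permutation test gave p = 0.1 for each subclone against LLC1, which is the smallest that 3 against 3 libraries allow, and p = 0.4 between the subclones. With no filter on low values, the limma fit gave -0.88 for SCC1 (adjusted p = 6.13e-07) and -0.90 for SCC2 (adjusted p = 6.21e-07) against LLC1.

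The promoter of Smad6 is shown because this is the gene with the largest relative loss among the 9. The 254 bases run from 250 before the RefSeq start to 4 after it (GRCm38, chr9:64022056-64022309, minus strand), and the capitals mark the palindrome GTCTAGAC, which is made of 2 adjoining copies of the Smad-binding letters GTCT in opposite directions.

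Smad6 promoter: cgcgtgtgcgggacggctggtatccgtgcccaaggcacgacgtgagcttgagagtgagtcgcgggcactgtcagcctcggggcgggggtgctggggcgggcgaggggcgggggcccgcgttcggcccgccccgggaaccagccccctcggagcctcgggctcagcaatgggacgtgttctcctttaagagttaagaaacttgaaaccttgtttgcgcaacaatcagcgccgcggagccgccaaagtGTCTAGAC

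The palindrome begins 4 bases before the start. Searched on both strands, it was in 70 of 32851 RefSeq windows of the same 300 bases around a start (0.213%), and in no window of the other 7 matched genes. This window was chosen after the match was seen; in the 250 bases before the start alone the share was 0.167%, and the Smad6 copy then falls out because it straddles the start. A match is a description of letters, not a binding site.

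The genes around Smad6 were compared in gene order. Of its 20 protein-coding neighbours, 10 on each side, 15 had at least 1 FPKM in LLC1. They stood at 22.2% to 104% of LLC1 in SCC1, where Calml4 was lowest, and at 69.4% to 110% in SCC2. The nearest neighbour on one side, Lctl at 95 kb, was below that level, with 0.551 FPKM in LLC1, 0.300 in SCC1 and 0.157 in SCC2 (54.5% and 28.5% of LLC1). The nearest on the other side, Smad3 at 195 kb, a Smad of the TGF-beta branch, had 18.9 FPKM in LLC1, 13.0 in SCC1 and 14.3 in SCC2. Neither was as low relative to LLC1 as Smad6. In the whole table, 11015 genes had at least 0.5 FPKM in LLC1, and 32 of them were at or under 5% of that level in both subclones. Smad6 was 1 of these 32, and 21 of the 32 lie on chromosome 9, which holds 609 of the 11015 genes. These counts were made after the values were seen and were not tested.

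**Figure D2:**
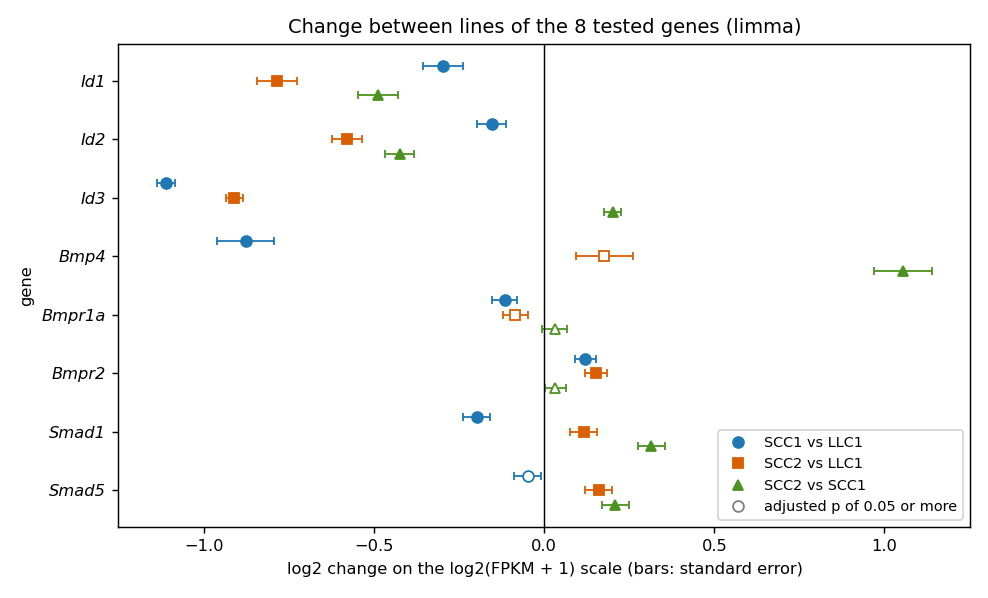
Fitted log2 changes on the log2(FPKM + 1) scale of the 8 tested genes in the 3 comparisons; bars are standard errors, open symbols did not pass the threshold and the vertical line is no change. Id1, Id2 and Id3 lie left of 0 in both comparisons with LLC1, Bmp4 is at -0.88 in SCC1 and 0.18 in SCC2, and the changes of Bmpr1a, Bmpr2, Smad1 and Smad5 are at most 0.31 in size.

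Id3 was the most abundant of the 9 genes. Its FPKM was 128, 123 and 125 in LLC1, 55.2, 58.5 and 58.7 in SCC1, and 65.2, 67.0 and 66.3 in SCC2. The 3 lines were fully apart, with LLC1 highest and SCC1 lowest, though most genes tested were also apart in each comparison. The means were 125 ± 2.20 in LLC1, 57.5 ± 1.98 in SCC1 and 66.2 ± 0.922 in SCC2 (SD, n = 3 each). Id3 fell by 1.11 in SCC1 (SE 0.0257, limma adjusted p = 2.01e-11) and by 0.91 in SCC2 (limma adjusted p = 1.29e-10). By size of change it ranked 164 of 10519 genes in SCC1 and 214 in SCC2. SCC2 was above SCC1 by 0.20 (limma adjusted p = 1.88e-05).

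Id1 had 39.8, 39.8 and 39.6 FPKM in LLC1, 30.6, 30.9 and 34.9 in SCC1, and 20.4, 23.7 and 23.9 in SCC2. Here SCC2 was lowest and SCC1 lay between, without overlap. The means were 39.7 ± 0.137, 32.1 ± 2.39 and 22.6 ± 1.99. Id1 fell by 0.30 in SCC1 (SE 0.0589, limma adjusted p = 7.59e-04) and by 0.79 in SCC2 (limma adjusted p = 3.37e-07), and SCC2 was below SCC1 by a further 0.49 (limma adjusted p = 1.12e-05). Its rank by size was 2748 in SCC1 and 306 in SCC2.

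Id2 had the same order of lines as Id1. Its FPKM was 38.8, 41.5 and 38.0 in LLC1, 34.7, 36.9 and 34.3 in SCC1, and 24.8, 25.8 and 27.6 in SCC2. The SCC1 libraries were just below those of LLC1, and those of SCC2 were well below both. The means were 39.4 ± 1.84, 35.3 ± 1.39 and 26.0 ± 1.41. Id2 fell by 0.15 in SCC1 (SE 0.0436, limma adjusted p = 0.00766) and by 0.58 in SCC2 (limma adjusted p = 3.54e-07), and SCC2 was below SCC1 by 0.43 (limma adjusted p = 2.71e-06). In LLC1 the levels of Id1 and Id2 did not differ beyond their spread. Id4, the remaining family member, was below the filter, with 23, 42 and 18 fragments over the libraries of LLC1, SCC1 and SCC2.

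The Id genes lie on different chromosomes. Id1 is on chromosome 2 (152736251 to 152737410, plus strand), Id2 on chromosome 12 (25093799 to 25097140, minus strand) and Id3 on chromosome 4 (136143497 to 136145755, plus strand), in GRCm38 per GENCODE. RefSeq promoter windows were matched for 8 of the 9 genes, not for Id1. In the 250 bases before the start, the letters GGCGCC, a GC-rich element bound by BMP-activated Smads, were found for Id2, Bmpr1a, Bmpr2 and 1 of 3 Smad5 starts, and in 9.59% of all windows. The Id2 stretch is shown as the only Id promoter window with this element. It covers bases -250 to -162 relative to the RefSeq start (GRCm38, chr12:25096254-25096342, minus strand), with GGCGCC in capitals. By the GENCODE positions, this stretch lies inside the Id2 gene, and the windows of Id3, Bmpr1a and Bmpr2 lie inside theirs. RefSeq and GENCODE thus differ on where these genes start.

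Id2 promoter: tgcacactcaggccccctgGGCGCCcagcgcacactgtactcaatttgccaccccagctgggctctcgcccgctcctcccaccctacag

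GGCGCC reads the same on both strands and begins 231 bases before the Id2 start. Id3 had no GGCGCC in its window. Its GTCT copies are of a kind that 82.9% of windows hold. The E-box CACGTG was found in the 250 bases of Bmp4 only, beside 6.02% of all windows. So the 2 Id windows that could be read do not share the element.

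Because Id proteins act by binding E proteins, the summed FPKM of Id1 to Id4 was set against that of Tcf3, Tcf4 and Tcf12. The Id sum was 205 ± 1.66 in LLC1, 125 ± 3.87 in SCC1 and 115 ± 3.99 in SCC2. The E-protein sum was 101 ± 1.54, 86.4 ± 1.09 and 104 ± 1.57. Over the LLC1 libraries, Tcf4 had 21572 fragments at a mean of 9.02 FPKM and Tcf3 had 11590 at 62.7. The length used for Tcf4 was thus far longer than that for Tcf3, and it was not checked against known transcripts. A shorter length would raise the E-protein sum and lower the ratios below. The ratio of the sums was 2.02, 2.06 and 1.98 in the LLC1 libraries, 1.41, 1.47 and 1.46 in SCC1, and 1.07, 1.10 and 1.13 in SCC2. The lines did not overlap. The log2 difference of the ratio was -0.48 in SCC1 and -0.87 in SCC2 against LLC1 and -0.39 between the subclones, each with a two-sided exact permutation p = 0.1, the smallest that 3 against 3 libraries allow. Without Id3 the difference in SCC1 was 0.00050, and those of SCC2 were -0.74 against each other line, so the SCC1 value rests on Id3. FPKM measures RNA and not protein.

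**Figure D3:**
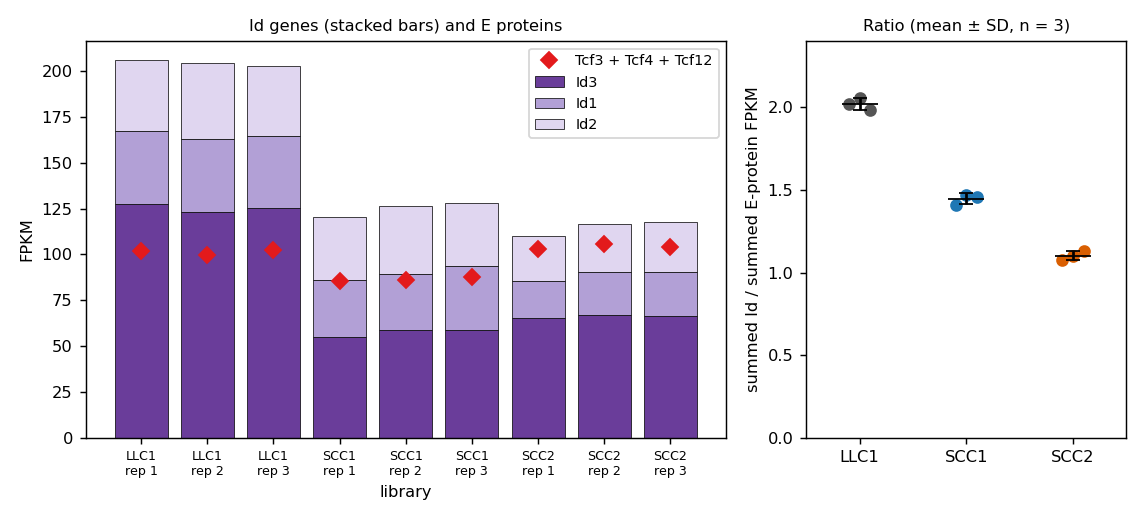
Left, FPKM of Id1, Id2 and Id3 as stacked bars and the E-protein sum as diamonds for each library; right, the ratio of the Id sum to the E-protein sum, with 1 point a library and the mean ± SD of 3 as bars. The ratio lies between 1.98 and 2.06 in LLC1, 1.41 and 1.47 in SCC1, and 1.07 and 1.13 in SCC2.

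The makeup of the Id pool also differed. Id3 gave 61.3% ± 0.915 of the Id sum in LLC1, 45.9% ± 0.282 in SCC1 and 57.6% ± 1.39 in SCC2 (SD, n = 3 each). Id2 gave 19.3% ± 0.879, 28.2% ± 1.26 and 22.6% ± 0.653. Among the E-protein genes, Tcf12 fell in both subclones, from 29.6 ± 0.398 FPKM to 21.0 ± 0.211 in SCC1 and 23.2 ± 0.331 in SCC2. Tcf3, which encodes E12 and E47, fell from 62.7 ± 1.88 to 57.5 ± 1.35 in SCC1 and rose to 73.5 ± 1.39 in SCC2. Tcf4 fell from 9.02 to 7.96 and 7.54.

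Whole chromosomes differed between the lines, and this touches several of the 9 genes. On chromosome 4, which holds Id3, the median log2 change of all tested genes was -0.33 in SCC1 and -0.04 in SCC2 against LLC1. On chromosome 13, which holds Smad5, it was 0.10 and 0.35. On chromosomes 2 and 12, with Id1 and Id2, the medians lay between -0.04 and 0.10. With chromosome medians taken off, the differences of Id1, Id2 and Id3 from LLC1 were -0.40, -0.22 and -0.78 in SCC1 and -0.74, -0.58 and -0.87 in SCC2. All were still negative. The difference of Id3 between SCC2 and SCC1 then became -0.09 (limma adjusted p = 0.00717) in place of 0.20, and that of Smad5 in SCC2 against LLC1 became -0.19 (limma adjusted p = 0.00141) in place of 0.16. The differences of Bmpr2 became 0.06 in SCC1 (limma adjusted p = 0.126) and 0.01 in SCC2 (limma adjusted p = 0.711), and that of Smad1 in SCC2 became 0.01 (limma adjusted p = 0.880), so these 3 calls were lost. The call of Smad5 in SCC2 against SCC1 was lost as well (-0.05, limma adjusted p = 0.278). The difference of Smad5 in SCC1 became -0.15 (limma adjusted p = 0.00630) and that of Bmpr1a in SCC2 -0.13 (limma adjusted p = 0.00901), so these 2 calls were gained.

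**Figure D4:**
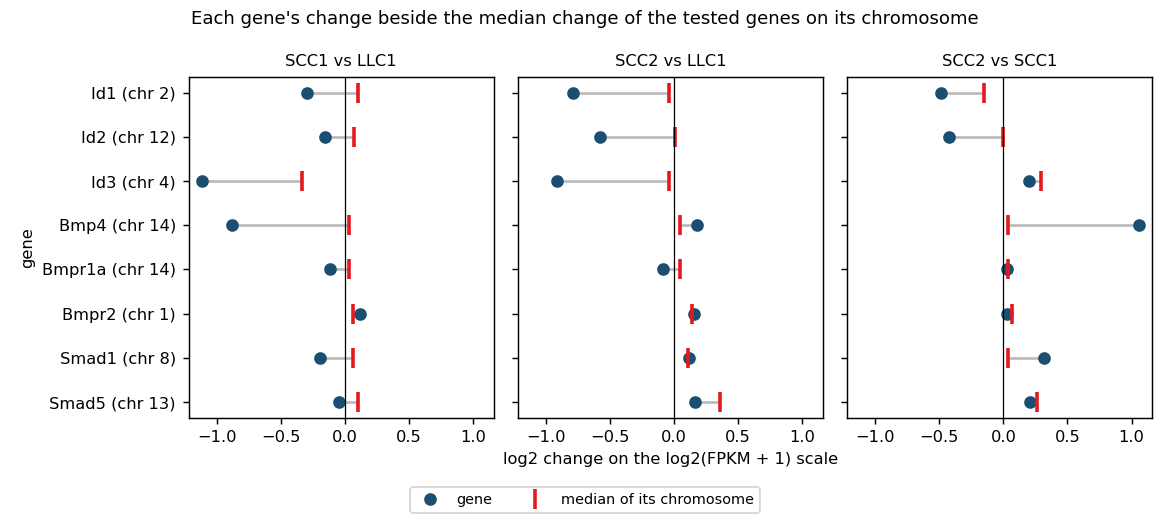
Fitted log2 change of each tested gene of the 9 and the median log2 change of all tested genes on its chromosome, on the log2(FPKM + 1) scale, 1 panel a comparison. Id3 lies left of its chromosome's median of -0.33 in SCC1, while Smad5 lies left of its chromosome's median of 0.35 in SCC2.

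The rest of the pathway was described with 13 lists of genes, also chosen with earlier results of these data known. Of their 97 symbols, 74 were in the table and 41 passed the filter, the 8 genes above included. In SCC1 against LLC1, limma called 10 of the 41 higher and 25 lower, beside 39.2% and 30.9% of all genes tested; the median log2 change over the 41 was -0.15, beside 0.03 for all genes tested. In SCC2 against LLC1 it called 12 higher and 23 lower, beside 34.7% and 32.9% of all genes (median -0.16, beside 0.01). Between the subclones it called 17 higher and 16 lower in SCC2, beside 37.0% and 39.4% of all genes (median 0.03, beside -0.0029). The share of the 41 called in either direction was 85.4% in each comparison with LLC1 (70.1% and 67.6% of all genes) and 80.5% between the subclones (76.3%). The share called at 1.5-fold or more was 14.6% in SCC1 (6.54% of all genes), 7.32% in SCC2 (5.74%) and 9.76% between the subclones (11.9%). The counts by list that follow stand against the same shares of all genes.

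Of the 3 tested proteases that process BMP ligands or cleave their antagonist chordin, 1 rose and 2 fell in SCC1. Pcsk6, a proprotein convertase, rose from 2.49 ± 0.0655 FPKM in LLC1 to 5.77 ± 0.113 in SCC1 and 3.17 ± 0.0858 in SCC2. Furin, the main convertase of the BMP precursors, went from 27.1 to 24.3 and 30.2, a fall in SCC1 and a rise in SCC2. Bmp1, a metalloprotease that cleaves chordin despite its name, fell from 116 to 94.3 and 108. Of the 5 tested secreted antagonists and modulators, 2 rose and 3 fell in SCC1, and 1 rose and 3 fell in SCC2. Grem1, which binds and blocks BMP2 and BMP4, rose from 18.8 ± 1.42 to 21.4 ± 0.954 in SCC1 and fell to 15.0 ± 0.582 in SCC2. Fstl1, a secreted follistatin-like protein, fell from 14.4 ± 0.240 to 8.13 ± 0.678 and 10.1 ± 0.434. Fstl3, which binds activins and some BMPs, fell from 14.2 to 10.4 in both. Dand5, of the same DAN family as Grem1, rose from 2.16 to 2.90 in SCC1 and had 2.47 in SCC2 (limma adjusted p = 0.0762).

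Among the receptors, 2 type I and 3 type II genes were tested. Acvr1, the other type I receptor, rose from 11.1 ± 0.327 FPKM to 12.2 ± 0.169 in SCC1 and 14.1 ± 0.415 in SCC2. Acvr2b, a type II receptor shared with activins, fell from 2.87 ± 0.0847 to 1.71 ± 0.123 in SCC2 and was 2.87 ± 0.103 in SCC1. Acvr2a, its close relative, fell from 3.11 to 2.69 in SCC2 and had 2.82 in SCC1 (limma adjusted p = 0.0756). All 5 tested co-receptor genes fell in SCC1, where 30.9% of all genes were called lower, and 4 of 5 fell in SCC2, beside 32.9%. Rgma, which encodes a membrane-anchored BMP co-receptor, fell from 3.83 ± 0.215 to 1.57 ± 0.212 in SCC1 and 1.59 ± 0.192 in SCC2. Rgmb, a protein of the same family, fell from 33.9 to 27.1 in SCC1 and was the one that rose in SCC2, to 39.1. Tgfbr3 (betaglycan) fell from 51.3 to 38.9 and 43.5, and Eng (endoglin) from 34.5 to 31.6 and 27.3.

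Of the 4 tested Smad genes, 2 rose and 1 fell in SCC1, and 2 rose and 1 fell in SCC2. Smad4, the common partner of the activated Smads, rose from 23.8 ± 0.565 FPKM to 29.6 ± 0.241 in SCC1 and fell to 17.0 ± 0.234 in SCC2. The median log2 change of its chromosome 18 was 0.22 in SCC1 and -0.22 in SCC2. Smurf1, a ubiquitin ligase for Smad1 and Smad5, rose from 16.5 ± 0.514 to 23.8 ± 0.771 in SCC1 and 19.4 ± 0.679 in SCC2. Smurf2, its relative, rose from 11.2 to 12.1 in SCC1 and had 10.6 in SCC2, which did not pass the threshold. Ppm1a, a Smad phosphatase gene, rose from 32.5 to 36.4 in SCC2 and had 31.6 in SCC1, which did not pass.

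Of the 6 tested BMP target genes other than the Id genes, 4 fell and 1 rose in SCC1, and 5 fell and none rose in SCC2. Of all genes, 30.9% were called lower and 39.2% higher in SCC1, and 32.9% and 34.7% in SCC2. The median log2 change of the 6 was -0.25 in SCC1 and -0.33 in SCC2, beside 0.03 and 0.01 for all genes. The one that rose in SCC1 was Smad7, an inhibitory Smad, from 3.32 to 3.89 FPKM. Gata2, a transcription factor gene, fell from 18.1 ± 0.139 FPKM to 12.0 ± 0.350 in SCC1 and 14.3 ± 0.228 in SCC2. Atoh8, a helix-loop-helix gene, fell from 2.03 ± 0.154 to 0.929 ± 0.169 and 1.17 ± 0.143. Runx2, a bone transcription factor gene, fell from 15.4 to 12.8 and 11.9. Tbx3, a T-box gene, fell from 2.02 to 1.37 in SCC2 and had 1.77 in SCC1 (limma adjusted p = 0.104). Of the tissue-restricted helix-loop-helix genes that pair with E proteins, Twist1 fell from 53.6 to 42.2 in SCC1 and had 51.5 in SCC2, and Twist2 rose from 68.3 to 73.2 in SCC2 and had 70.1 in SCC1; these SCC2 and SCC1 values, respectively, did not pass the threshold. Cdkn1a, a cyclin-dependent kinase inhibitor gene that E proteins can activate, rose from 115 ± 4.40 to 173 ± 4.23 in SCC1 and fell to 105 ± 0.817 in SCC2. Cdkn1b, a related inhibitor, fell from 34.7 to 30.6 and 27.3.

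**Figure D5:**
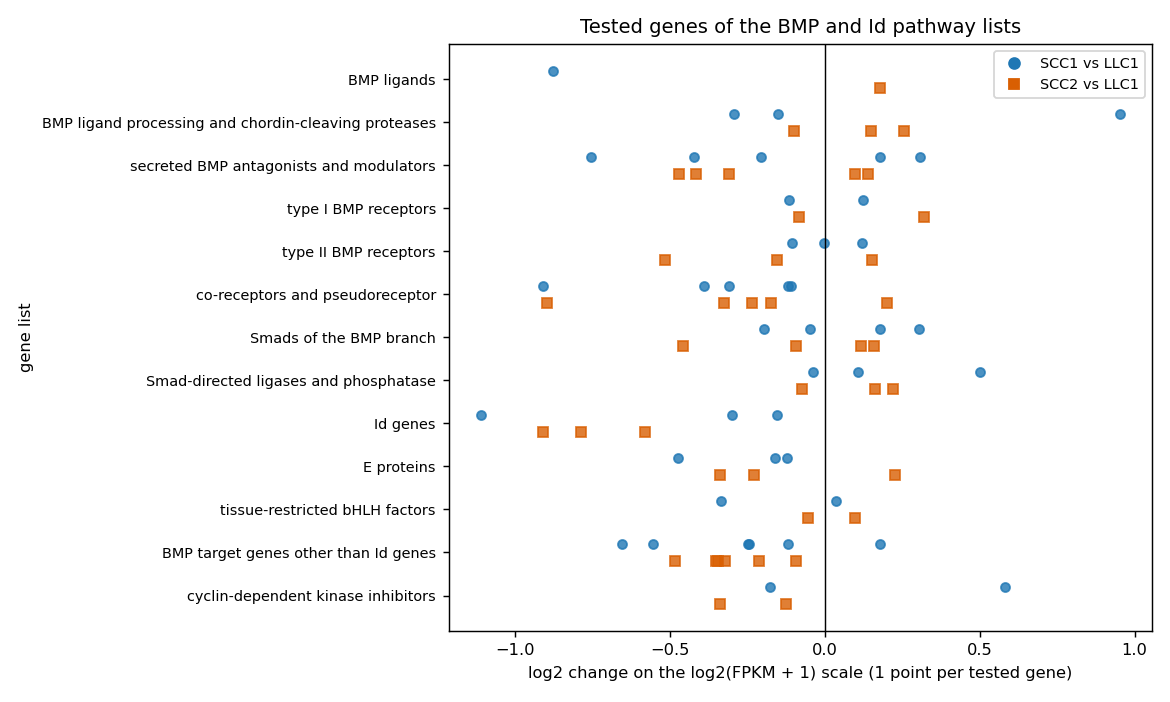
Fitted log2 change of each tested list gene, on the log2(FPKM + 1) scale, arranged by list; points are genes, coloured by comparison with LLC1. All points of the Id genes and of the co-receptors lie left of 0 in SCC1, with Rgma at -0.91.

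The genes closest in pattern to each Id gene were ranked by the root-mean-square difference of centred log2(FPKM + 1) over the 9 libraries. Closest to Id1 were Rab3il1, Sik1 and Metrn (each 0.080), Tmem205 (0.083) and Hoxb4 (0.084). Closest to Id2 were Agrn (0.047), Otud1 (0.053), Cald1 (0.055), Slc25a27 (0.057) and Creld1 (0.058). Id2 stood at rank 44 in the list for Id1, and Id1 at rank 197 in the list for Id2. Closest to Id3 were Fbln2 (0.046), Nefl (0.073), Tbx5 (0.073), Amotl2 (0.075) and Nrbp2 (0.083), of which Fbln2, Nefl and Tbx5 passed the filter through LLC1 only. Fbln2 went from 1.48 FPKM in LLC1 to 0.115 in SCC1 and 0.252 in SCC2, Nefl from 1.16 to 0.0632 and 0.118, and Tbx5 from 1.69 to 0.252 and 0.518. The relative falls of these 3 were larger than that of Id3, since the log2(FPKM + 1) scale understates the change of low genes. Amotl2 had 12.5 FPKM in LLC1, 5.08 in SCC1 and 6.76 in SCC2. In the list for Id3, Id1 stood at rank 707 (0.364) and Id2 at rank 1201 (0.401). Id3 itself stood at rank 5178 in the list for Id1 and at rank 8738 in that for Id2. The ranks are among the 10519 genes tested, less predicted and clone names.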

How the data were processed

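RNA-seq values of 9 libraries were used as the FPKM table the authors deposited, with 1 value per gene symbol and library. Per the series' design text, reads of 150 bp were trimmed with Trimmomatic and aligned with hisat2, and FPKM came from cufflinks; tool versions and strand use in counting are not stated there. The labels and the design text name different RNA and library kits. The builds in the submitters' processing notes are GRCm38 and mm10, which are names of the same assembly. The pseudogene or noncoding models that overlap Bmp4, Bmpr1a and Bmpr2 in GENCODE have no row in the table, so shared reads cannot be split.

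Lines were compared with limma 3.58.1 in R 4.3.3 (trend and robust options) on log2(FPKM + 1), for genes with at least 1 FPKM in at least 3 libraries, with all 9 libraries in 1 fit. The two-sided p-values were adjusted by Benjamini-Hochberg over the 10519 genes tested (threshold 0.05). Whole fragments were recovered from the FPKM values: all 12270 genes above 0 in every library came out whole within 0.001 fragments. Totals were 17094808 to 19398657 per library. Intervals on fragments are exact and cover counting error only. The scripts were tested on simulated data. Members and lists were chosen with earlier results of these data known. Text names all members, up to 4 further tested genes per list with the largest change, and the 5 nearest genes per Id gene. Alternatives covered the pseudocount, filter, normalization, chromosome medians, voom on the fragments, fits of 2 lines, a replicate block and leaving out each library. Promoters are from RefSeq and gene positions from GENCODE M21, both on GRCm38; the Id1 promoter and the member proteins were not used here. Same-numbered libraries of different lines did not deviate together: their correlations were -0.0683 to 0.0890, so the numbers were not taken as pairs.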

Additional observations from a re-analysis of the deposited data

Results flagged for a closer look

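The change from LLC1 differed between the subclones for 6 of the 8 tested genes, each by the limma contrast of SCC2 with SCC1. On the log2(FPKM + 1) scale the change in SCC2 minus that in SCC1 was -0.4884 for Id1 and -0.4252 for Id2, which fell in both subclones and further in SCC2. It was 1.0548 for Bmp4, which fell in SCC1 only and was not called in SCC2. It was 0.3141 for Smad1, which fell in SCC1 and rose in SCC2. It was 0.2009 for Id3 and 0.2087 for Smad5. Once chromosome medians were taken off, these were -0.0936 and -0.051, and Smad5 was then no longer called (limma adjusted p = 0.278). The rise of Smad1 in SCC2 against LLC1 was then 0.0077 and not called (limma adjusted p = 0.880). That call was also lost without LLC1 replicate 3 or SCC2 replicate 1. Of all genes tested, 76.3% were called in the contrast of SCC2 with SCC1.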

How the results depend on the processing

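The 24 tested member results were recomputed under up to 19 other fits. Of 453 values, 430 kept their direction and side of the threshold, 7 lost the call, 11 gained it and 5 reversed. Id1, Id2 and Id3 stayed lower than LLC1 and called in both subclones under all 19. With chromosome medians removed, the reversed differences were -0.19 for Smad5 in SCC2 against LLC1 and, between the subclones, -0.0936 for Id3, -0.0036 for Bmpr1a, -0.0355 for Bmpr2 and -0.051 for Smad5; the construction of that fit subtracts a chromosome-wide shift. Without Id3, the log2 difference of the Id to E-protein ratio was 0.00050 in SCC1 against LLC1, and -0.7428 and -0.7433 for SCC2 against LLC1 and SCC1. Genes called at 1.5-fold or more numbered 437 with a filter of 5 FPKM and 1048 with voom in SCC1 against LLC1 (688 as reported), and 342, 963 and, with a pseudocount of 0.1, 921 in SCC2 against LLC1 (604 as reported). Of the members, 1 was called at that size in SCC1 with the filter of 5 FPKM or quantile normalization (2 as reported). Between the subclones 0 were called with the filter of 5 FPKM (1 as reported), which removes Bmp4. In SCC2 against LLC1, Id2 also reached that size with a pseudocount of 0.1, quantile normalization or voom. It did so too without LLC1 replicate 1, LLC1 replicate 3 or SCC2 replicate 3. Under quantile normalization the change of Bmp4 in SCC1 against LLC1 was -0.51, below that size, which left Id3 alone. The cause of the other moved counts was not tested. With a replicate block, although the numbers do not pair the libraries, 7306, 7046 and 7962 genes were called in SCC1 against LLC1, SCC2 against LLC1 and SCC2 against SCC1, and no member call changed. Leaving out 1 library gave 6826 to 7298, 6633 to 7063 and 7612 to 7990. Depth limits Bmp4 and Smad6 most, at 149 fragments or fewer over the libraries of a line.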

Other observations

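Acvrl1, a type I receptor gene of endothelial cells for BMP9 and BMP10, was below the filter in every line. It had 60 fragments over the LLC1 libraries, 10 over SCC1 and 1 over SCC2, so LLC1 was 6.25-fold above SCC1 (95% exact interval 3.18 to 13.7) and 61.4-fold above SCC2 (10.6 to 2464). Msx1, a homeobox gene known as a BMP target, had 19 fragments over LLC1, 0 over SCC1 and 30 over SCC2. Against a floor of 3 fragments over the group it was at least 6.60-fold lower in SCC1 than in LLC1. SCC1 thus had 0 or 1 fragments of Bmp2, Smad9 and Msx1, each with 19 or more in LLC1 and 30 or more in SCC2. These genes were picked out after their values were seen, and the intervals cover counting error only.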
